A study of Homo sapiens and Mus musculus with 12 samples.

Results

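Cd69, Cd83, Cd38, Tfrc and Slc3a2 encode 5 surface proteins that are read as activation markers on lymphocytes: CD69, CD83, CD38, CD71 and the heavy chain of CD98. They were taken by their symbols from the mouse count table, 5 of 22021 listed genes, and from the human count table as CD69, CD83, CD38, TFRC and SLC3A2, 5 of 18304 listed genes. All 5 were listed and passed the filter on low counts in both species. Transcripts were counted in CD3-NK1.1+ NK cells sorted from C57BL/6J spleens and in NK92MI cells, with 3 libraries in each group. WT mice carried Ehmt2 flox/flox alleles, and KO mice carried the same floxed alleles together with Ncr1 iCre, which places Cre recombinase under the gene of the NK receptor NKp46. Mice were young adults matched for age and sex, and no group with Cre and without floxed alleles was analysed here. The sample titles name the KO group EHMT2-KO, whereas the genotype label reads Ezh2-KO, and the titles were followed. NK92MI is a human NK line that carries an IL-2 transgene, and it was treated with BIX-01294, an inhibitor of the methyltransferase EHMT2 and of its partner EHMT1, or with the solvent DMSO. The labels give neither the dose nor the time of this treatment, and the study states both for other assays of NK92MI cells but not for these libraries. Nothing states whether the libraries of a group came from separate mice or cultures, so the p-values measure the spread between these libraries.

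These proteins do different work once a lymphocyte is activated. CD69 is a C-type lectin that appears within hours and holds the sphingosine 1-phosphate receptor S1PR1 inside the cell, which delays exit from tissue. CD83, best known from mature dendritic cells, stabilizes MHC class II and CD86 at the surface. CD38 is an ectoenzyme that breaks down NAD and makes cyclic ADP-ribose. CD71, the transferrin receptor, brings iron into the cell, and the CD98 heavy chain carries a light chain, such as LAT1, to the surface, where the pair imports large neutral amino acids. In NK cells CD71 and CD98 rise with the growth that cytokines such as IL-2 and IL-15 induce.

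The 5 transcripts are first summarised for both comparisons. In KO NK cells, Cd83 and Tfrc stood at 0.52 and 0.58 times the WT level and were lower once the adjusted p limit was 0.05. No transcript passed the stricter threshold of 0.01, and the log2 fold changes of Cd69 and Slc3a2 were 0.21 and 0.06. In NK92MI cells, CD83 rose 2.98-fold, SLC3A2 2.96-fold and TFRC 1.58-fold with BIX-01294. CD69 was 1.31-fold higher with BIX-01294, under the fold threshold, and CD38 was at 1.13-fold and missed the test. In the plot of values by library, the groups of all 5 human transcripts did not overlap. Of all human genes tested, 24.1% were likewise higher without overlap. For CD38 the gap was narrow, from 265.9 CPM in the highest DMSO library to 266.5 CPM in the lowest BIX library. In mouse only the groups of Cd83 and Tfrc did not overlap, and 19.3% of all genes tested were likewise lower without overlap.

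**Figure D1:**
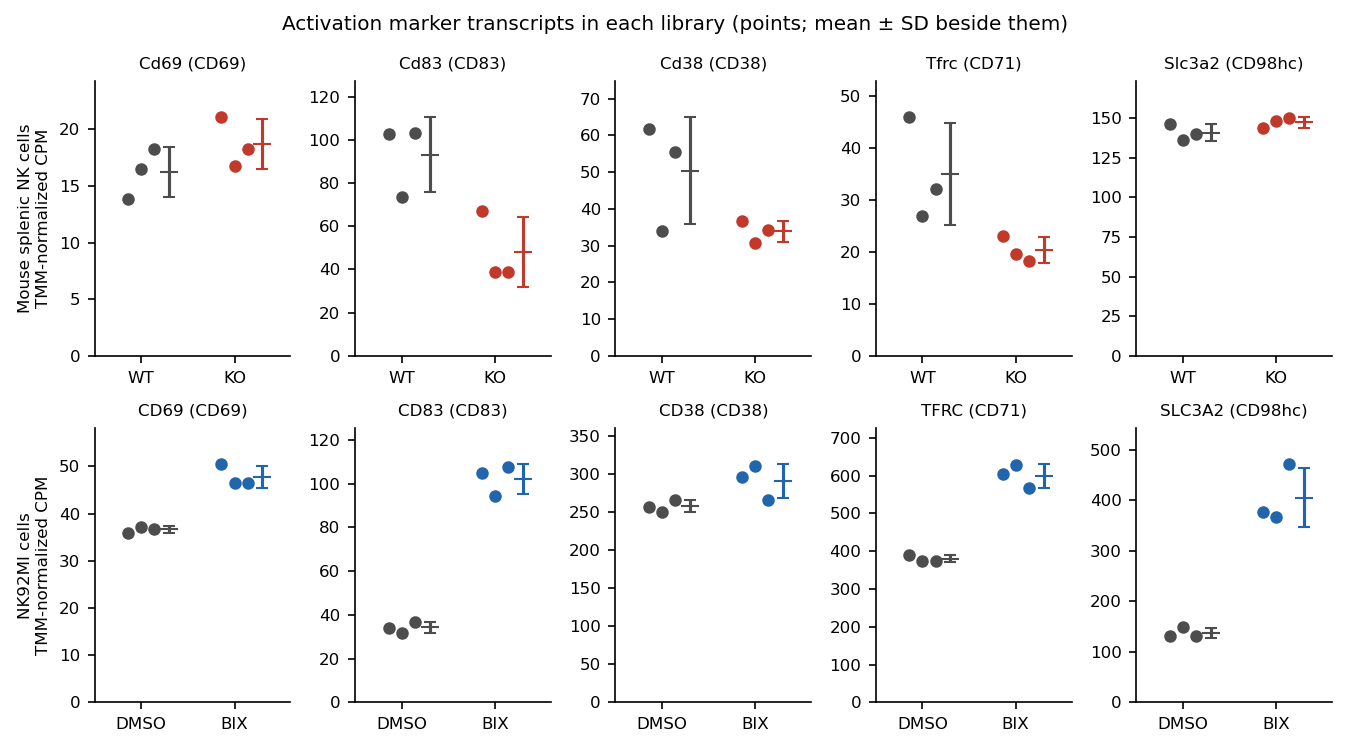
Each point is 1 library, and the vertical axis gives counts scaled per library with TMM (CPM), from 0, for mouse splenic NK cells in the upper row and NK92MI cells in the lower row. Bars beside the points are the mean ± SD of 3 libraries, and CD98hc is the CD98 heavy chain. Cd83 lies at 73.3 to 103 in WT and 38.6 to 67.0 in KO, and SLC3A2 at 131 to 148.5 with DMSO and 366 to 472 with BIX-01294.

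Among the sequences that bear on these genes, the hairpins that link Tfrc to iron are shown first, because TFRC rose in the human comparison, Tfrc was lower in the mouse comparison, and the ferritins, which carry the same element, are read beside them. Iron regulatory proteins bind such an iron-responsive element. In the 3′UTR of TFRC this protects the mRNA, and in the 5′UTR of the ferritin mRNAs it blocks translation. A search of GENCODE transcripts for a bulged C, 5 paired bases and the loop CAGTGN found 4 hairpins in the 3′UTR of TFRC and 1 in the 5′UTR of FTH1 and of FTL, and the same numbers in mouse Tfrc, Fth1 and Ftl1. In human such a hairpin occurs in 0.715% of genes with an annotated 3′UTR and in 0.178% of genes with a 5′UTR, and in mouse in 0.604% and 0.134%. Each sequence is given 5′ to 3′ on the strand of the gene, with the loop in capitals. Human sites of TFRC 1, 2 and 4 are the same as the mouse sites over all 27 bases, and site 3 shares 26 of them.
TFRC site 1, chr3:196050980-196051006 of GRCh38, minus strand: attatcggaagCAGTGCcttccataat
TFRC site 2, chr3:196050576-196050602, minus strand: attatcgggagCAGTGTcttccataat
TFRC site 3, chr3:196050511-196050537, minus strand: tgtatcggagaCAGTGAtctccatatg
TFRC site 4, chr3:196050464-196050490, minus strand: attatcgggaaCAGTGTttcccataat
Tfrc site 3 in mouse, chr16:32631664-32631690 of GRCm38, plus strand: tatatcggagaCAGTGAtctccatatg
FTH1, chr11:61967575-61967601 of GRCh38, minus strand: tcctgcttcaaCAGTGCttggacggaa
FTL, chr19:48965336-48965362 of GRCh38, plus strand: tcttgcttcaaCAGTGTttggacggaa

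Promoter windows of CD83 and SLC3A2 are shown because these were the transcripts with the largest changes among the 5. Both genes had several windows, and only the window with an AP-1 or NF-kB match was printed for each. Windows of 250 bases before annotated starts came from RefSeq (GRCh38.p14), which held TFRC, CD38, CD83 and SLC3A2, and CD69 was not matched. They were searched on both strands for TGANTCA (AP-1), GGGCGG (SP1), CACGTG (E-box), TGATGNAA (an ATF4 element), TGACGT (CRE) and the NF-kB consensus. Capitals mark matches to AP-1 or NF-kB.
CD83, chr6:14117522-14117771, plus strand: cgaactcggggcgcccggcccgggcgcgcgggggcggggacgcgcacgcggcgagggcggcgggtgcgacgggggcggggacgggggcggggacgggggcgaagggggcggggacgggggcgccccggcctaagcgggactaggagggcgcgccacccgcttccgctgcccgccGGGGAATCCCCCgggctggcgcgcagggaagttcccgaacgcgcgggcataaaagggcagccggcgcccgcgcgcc
SLC3A2, chr11:62881449-62881698, plus strand: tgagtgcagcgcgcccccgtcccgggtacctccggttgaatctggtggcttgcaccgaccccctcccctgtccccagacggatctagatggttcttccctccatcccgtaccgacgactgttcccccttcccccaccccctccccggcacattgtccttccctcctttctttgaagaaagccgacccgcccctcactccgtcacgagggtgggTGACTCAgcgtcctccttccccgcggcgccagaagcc
The CD83 window held 3 NF-kB matches that overlap each other, between 76 and 65 bases before the start, and 5 matches to SP1. In the SLC3A2 window, TGACTCA lay 37 to 31 bases before the start, with 1 SP1 match further upstream. The AP-1 letters occur in 6.57% of all 35116 windows, the NF-kB consensus in 5.21% and the SP1 letters in 42.6%. The TFRC window had 3 SP1 matches and none to the other motifs, the CD38 window and the other CD83 window had none at all, and the other windows of SLC3A2 had SP1 matches alone. A match describes letters and does not show binding.

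Before the results, the libraries were checked. Total counts were 25891680 in WT replicate 2 and between 36384416 and 37438868 in the other mouse libraries, and between 16579469 and 17165446 in the human libraries. Ehmt2 was counted at 282 ± 5.94 CPM (counts scaled to a fixed library size after TMM normalization, SD, n = 3) in WT and 150.1 ± 18.1 in KO NK cells, a difference of −0.91 on the log2 scale (standard error 0.10, adjusted p = 0.0162 by edgeR's quasi-likelihood test). All 12 NK markers of a list were counted in each mouse library, and all 12 of the human list in NK92MI cells. In mouse their summed level was 5614 to 9534 CPM in WT and 10751 to 12541 CPM in KO, without overlap, and 12 of 12 had a positive log2 fold change, 7 of them past the 0.05 threshold on the adjusted p. Markers of most other cell types had lower sums in KO libraries, which were 571 to 1639 CPM in WT and 98.4 to 536 in KO for 10 B cell genes, 3117 to 7384 and 2031 to 3245 for 12 macrophage and monocyte genes, and 238 to 394 and 110.05 to 139 for 11 erythroid genes. For 10 dendritic cell genes they were 1650 to 1911 and 1516 to 1645, for 10 neutrophil genes 94.2 to 853 and 14.95 to 97.4, and for 9 T cell genes 188 to 288 and 143 to 258. The macrophage and monocyte, neutrophil and T cell sums overlapped between the groups. Of the T cell genes 2 were higher in KO and 0 lower past the 0.05 threshold. In the KO libraries 3 neutrophil markers were at 0 in replicate 2 and 2 in replicate 3, 1 erythroid marker was at 0 in replicate 2, and the other lists had no marker at 0. In bulk RNA, fewer cells of a type and less RNA per cell cannot be told apart, and the part of these markers in the mouse results below was not tested.

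To address whether loss of Ehmt2 shifts the activation markers, KO and WT NK cells were compared over 13189 genes with edgeR's quasi-likelihood test. With limits of 0.01 on the adjusted p and 0.5 on the |log2 fold change|, 0 genes (0%) were called, against 1495 by DESeq2 and 3 by limma-voom, whereas 2080 higher and 2639 lower genes had an unadjusted p under 0.05. The second threshold, an adjusted p under 0.05, called 980 genes (7.43%) lower and 585 (4.44%) higher. Among the 5 transcripts, 2 were lower and 0 higher at this second threshold, and the median log2 fold change of the 5 was −0.57, beside 0.01 over all genes.

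Cd83, on chromosome 13 of GRCm38 from 43784775 to 43803132 (plus strand), was counted at 103, 73.3 and 103 CPM in WT replicates 1, 2 and 3. In KO replicates 1, 2 and 3 it was at 67.0, 38.8 and 38.6 CPM. Every KO library was below every WT library, and WT replicate 2 and KO replicate 1 lay closest to each other. The log2 fold change was −0.95 (95% interval −1.51 to −0.40, standard error 0.24, adjusted p = 0.0467 by edgeR). A two-sided exact permutation test gave p = 0.1, the smallest that 3 against 3 allow, and 19.3% of all genes tested were likewise lower without overlap and 19.1% higher. Across the 6 libraries the order of Cd83, from WT replicate 3 down to KO replicate 3, was the same as that of the summed B cell markers. CD83 is known from B cells and dendritic cells as well as from activated NK cells, and the part of B cells in this difference was not tested.

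Tfrc, on chromosome 16 from 32608920 to 32632794 (plus strand), stood at 45.8, 26.9 and 32.1 CPM in the WT replicates. The KO replicates held 23.0, 19.6 and 18.2 CPM, all below the lowest WT value. Its log2 fold change was −0.79 (95% interval −1.25 to −0.32, standard error 0.20, adjusted p = 0.0472 by edgeR, exact permutation p = 0.1). Erythroid precursors carry much CD71, and 10 of 11 erythroid markers were lower in KO at the second threshold. Erythroid sums were 376, 238 and 394 CPM in WT replicates 1, 2 and 3 and 138, 139 and 110 CPM in the KO replicates. Macrophage and monocyte sums were 7384, 3117 and 5545 CPM in WT and 3245, 2031 and 2608 CPM in KO. The part of these cell types in the Tfrc values was not tested.

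Both calls lay close to the 0.05 limit and were lost when any of several libraries was left out. Leaving out WT replicate 1, WT replicate 3, KO replicate 2 or KO replicate 3 ended them, with adjusted p from 0.122 to 0.161 for Cd83 and from 0.103 to 0.163 for Tfrc by edgeR, and the number of genes called at 0.05 fell from 1565 to between 0 and 99. In these settings the log2 fold changes stayed negative, at −0.88 to −0.82 for Cd83 and −0.85 to −0.54 for Tfrc. WT replicate 2 was the shallowest library and also the WT library with the highest NK marker sum. Apart from dendritic cells, it had the lowest WT sum of every other cell type list. Without WT replicate 2, 3530 genes were called at 0.05 and Cd83, Tfrc and Cd38 were all among them, at adjusted p of 0.0144, 0.00894 and 0.00375. Without KO replicate 1, the KO library with the most B cell markers, Cd83 and Tfrc remained called, with log2 fold changes of −1.27 and −0.89.

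Cd38, on chromosome 5 from 43868553 to 43912375 (plus strand), was counted at 61.7, 34.0 and 55.5 CPM in WT and at 36.6, 30.8 and 34.4 CPM in KO replicates 1, 2 and 3. WT replicate 2 lay within the KO range, and the other WT libraries lay above it. With a log2 fold change of −0.57 (95% interval −1.05 to −0.09, standard error 0.21, adjusted p = 0.0950 by edgeR), Cd38 did not pass the test. The exact permutation p was 0.3.

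Cd69, on chromosome 6 from 129267325 to 129275436 (minus strand), was at 13.8, 16.5 and 18.2 CPM in WT and at 21.0, 16.7 and 18.3 CPM in KO. The groups overlapped, and the log2 fold change was 0.21 (95% interval −0.12 to 0.54, standard error 0.14, adjusted p = 0.328 by edgeR). Slc3a2, on chromosome 19 from 8706882 to 8723369 (minus strand), was the steadiest of the 5, at 146, 136 and 139.9 CPM in WT and 144, 148 and 150 CPM in KO. Its log2 fold change of 0.06 had a standard error of 0.07 and a 95% interval from −0.10 to 0.23, and it did not pass the test (adjusted p = 0.549 by edgeR).

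These mouse values depend on what they are scaled to. The list of NK markers holds Il2rb, Tbx21 and Prf1, which the paper reports as higher in KO NK cells by RT-qPCR. It is therefore not a neutral reference for NK cell content. When the libraries were scaled to the summed NK markers, the median of all genes moved to −0.82, Cd83, Tfrc and Cd38 stood at log2 fold changes of −1.81, −1.67 and −1.47, and the signs of Cd69 and Slc3a2 turned to −0.61 and −0.78. The scaling changes a common factor of each library and so moves all genes nearly alike. Relative to the median gene, the 5 values therefore stay nearly the same under both scalings by construction. They were −0.97 and −0.99 for Cd83, −0.80 and −0.84 for Tfrc, −0.59 and −0.65 for Cd38, 0.19 and 0.21 for Cd69, and 0.05 and 0.04 for Slc3a2. The plot of the mouse libraries sets the 5 transcripts beside the marker sums.

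**Figure D2:**
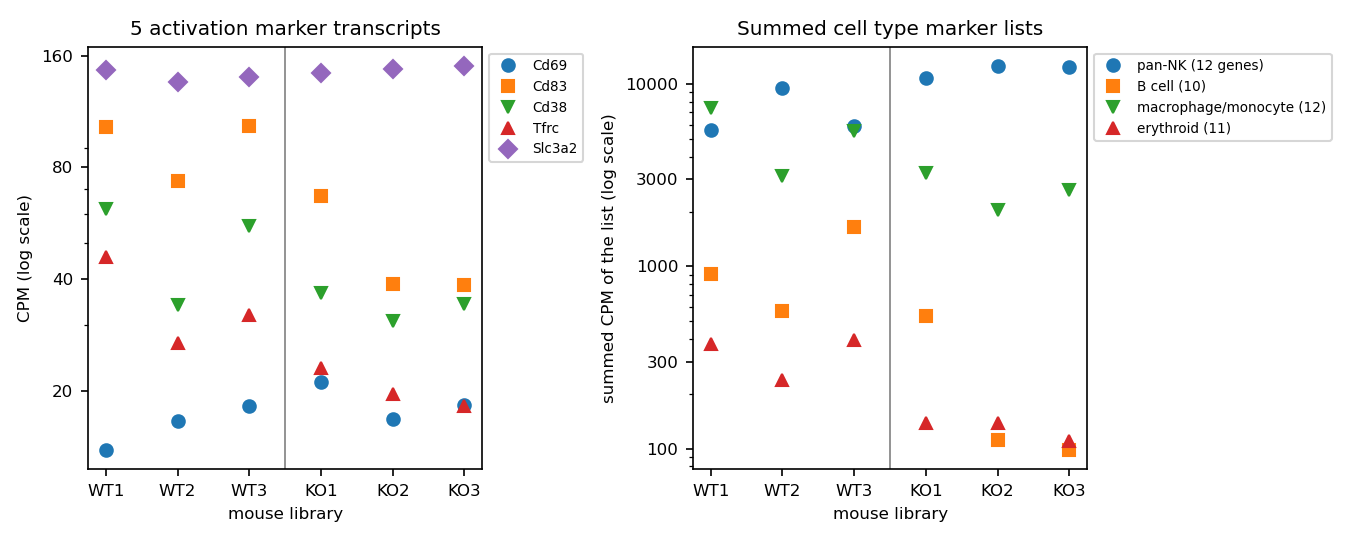
CPM of the 5 transcripts (left) and summed CPM of 4 cell type marker lists (right) in each mouse library, both on log axes, with WT libraries left of the vertical line. Cd83 and Tfrc are lower right of the line, as are the B cell and erythroid sums, while the pan-NK sum is 10751 or more in the KO libraries and at most 9534 in WT.

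In NK92MI cells the question was whether inhibition of EHMT2 activity moves the same markers. Of 12727 genes tested, 1485 (11.7%) were called by the same limits, and 794 (6.24%) of them were higher with BIX-01294. Among the 5 transcripts, 3 were called and all 3 were higher. The second threshold, which has no fold limit, called 2348 genes (18.4%) higher and 2344 (18.4%) lower, and 4 of the 5 transcripts were higher. All 5 were higher without overlap of the groups, which 24.1% of all genes tested were, while 23.9% were lower without overlap. Their median log2 fold change was 0.66, beside −0.01 over all genes. EHMT2 itself was counted at 57.7 ± 3.66 CPM with DMSO and 38.5 ± 2.39 CPM with BIX-01294 (SD, n = 3). B cell markers were few, with 5 of 10 in the table and sums of 17.5 to 20.1 CPM with DMSO and 28.6 to 32.3 CPM with BIX-01294. Of 12 macrophage and monocyte markers 5 were in the table, with sums of 8.88 to 10.65 and 14.6 to 17.5 CPM, and their part in the results was not tested.

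CD83, on chromosome 6 of GRCh38 from 14117256 to 14136918 (plus strand), was at 34.2, 31.8 and 36.8 CPM in the 3 DMSO libraries and at 105, 94.4 and 107 CPM in BIX replicates 1, 2 and 3. Every BIX library was far above the highest DMSO library, which held 36.8 CPM. It rose by a log2 fold change of 1.58 (95% interval 1.40 to 1.75, standard error 0.08, adjusted p = 1.88e-08 by edgeR), which ranked 12th of all genes by adjusted p. The CD83 window printed above, from 14117522 to 14117771, lies inside this gene span. The other CD83 window ends at 14117255, just before the span, and held no match to any of the motifs. A part of NF-kB in the rise of CD83 was not tested.

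SLC3A2, on chromosome 11 from 62856004 to 62888880 (plus strand), was counted at 131, 148.5 and 131 CPM with DMSO. With BIX-01294 it reached 377, 366 and 472 CPM, BIX replicate 3 being the highest. The rise was 1.57 on the log2 scale (95% interval 1.36 to 1.77, standard error 0.09, adjusted p = 7.16e-08 by edgeR).

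TFRC, on chromosome 3 from 196012511 to 196082153 (minus strand), was counted at 390.1, 374 and 374 CPM with DMSO and 605, 628 and 566 CPM with BIX-01294. All BIX libraries lay above all DMSO libraries, and the log2 fold change was 0.66 (95% interval 0.53 to 0.79, standard error 0.06, adjusted p = 3.20e-06 by edgeR). An lncRNA on the opposite strand shares 191 exonic bases with TFRC, and since the strand setting of the counting is not given in the sources used here, reads over those bases cannot be told apart.

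CD69, on chromosome 12 from 9752486 to 9760901 (minus strand), moved less, from 35.9, 37.2 and 36.8 CPM with DMSO to 50.5, 46.4 and 46.5 CPM with BIX-01294. The log2 fold change of 0.38 (95% interval 0.22 to 0.55, standard error 0.08) had an adjusted p of 0.00158 by edgeR but stayed under the fold threshold. Scaled to the summed NK markers it was 0.25, with an adjusted p of 0.0765 by edgeR. Of those markers, 5 were higher and 5 lower with BIX-01294 at the second threshold. CD38, on chromosome 4 from 15778275 to 15853232 (plus strand), was at 257, 251 and 266 CPM with DMSO and 296, 311 and 267 CPM with BIX-01294. BIX replicate 3 lay less than 1 CPM above the highest DMSO library, and with a log2 fold change of 0.17 (95% interval 0.03 to 0.32, standard error 0.07, adjusted p = 0.0596 by edgeR) CD38 was not called. Without BIX replicate 3 its adjusted p was 0.00522 and its log2 fold change 0.24. Each of the 5 human transcripts had an exact permutation p of 0.1, the smallest this design allows.

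Set side by side, Cd83 and CD83 had log2 fold changes of −0.95 and 1.58, Tfrc and TFRC of −0.79 and 0.66, and Slc3a2 and SLC3A2 of 0.06 and 1.57. The comparisons differ in species, in cell source and in whether the gene was lost or its product inhibited, and the difference between them was not tested.

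**Figure D3:**
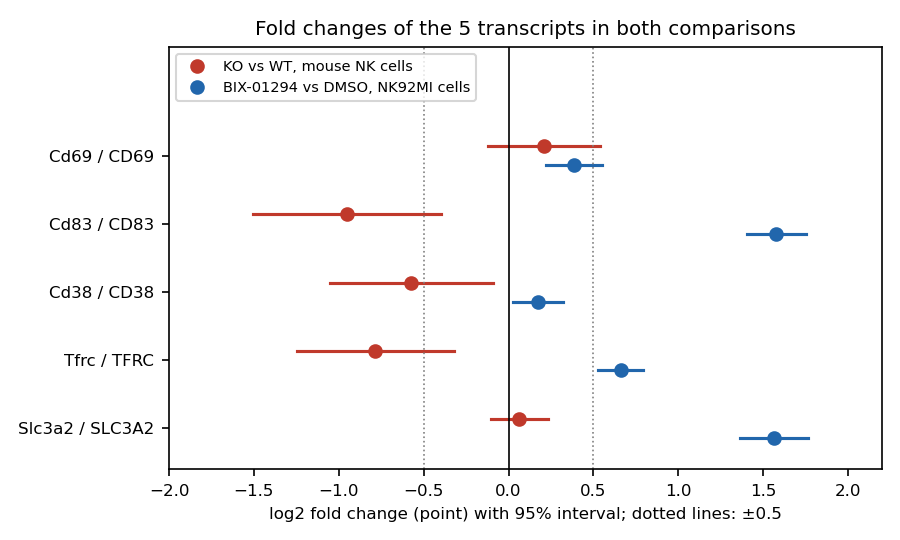
Log2 fold change (points) with its 95% interval (bars) for the 5 transcripts, in KO against WT mouse NK cells in red and in BIX-01294 against DMSO in NK92MI cells in blue. Dotted lines mark ±0.5. The intervals of CD83, TFRC and SLC3A2 lie above 0.5, while those of Cd83, Cd38 and Tfrc lie below 0.

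Levels were compared between genes as CPM per kilobase of the principal transcript. In WT NK cells the order was Slc3a2 (50.0 ± 1.84), Cd83 (37.6 ± 6.95), Cd38 (15.4 ± 4.45), Cd69 (9.60 ± 1.31) and Tfrc (7.15 ± 2.0, SD, n = 3). The libraries of Cd38 and Cd69 overlapped, as did those of Cd69 and Tfrc, and the other neighbours did not. In KO NK cells Slc3a2 led at 52.3 ± 1.16, Cd83 was at 19.4 ± 6.59, Cd69 and Cd38 overlapped at 11.1 ± 1.30 and 10.4 ± 0.88, and Tfrc was lowest at 4.15 ± 0.51. NK92MI cells had another order. With DMSO, TFRC (70.3 ± 1.70) and SLC3A2 (60.4 ± 4.43) came first, then CD38 (45.9 ± 1.33), CD69 (21.9 ± 0.39) and CD83 (14.7 ± 1.07). With BIX-01294, SLC3A2 (179 ± 25.8) stood above TFRC (111 ± 5.83), and CD83 (43.9 ± 2.95) stood above CD69 (28.5 ± 1.40), with CD38 between them and TFRC at 51.8 ± 4.02. No neighbours overlapped in NK92MI cells.

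The partners of each protein were read from lists. Over all mouse genes tested, 7.43% were lower and 4.44% higher at the second threshold. Over all human genes tested, 11.7% were called, 6.24% of them on the higher side, and at the second threshold 18.4% were higher and 18.4% lower. The lists are short, and no list was tested against these shares. The CD98 heavy chain reaches the surface with a light chain, and of 5 light chain genes tested in mouse, 2 were lower and 0 higher in KO at the second threshold, with a median log2 fold change of −1.10. Slc7a5, the gene of LAT1, was at 39.2 ± 6.93 CPM in WT and 20.3 ± 0.44 CPM in KO (log2 fold change −0.95, adjusted p = 0.0239 by edgeR), and Slc7a8, the gene of LAT2, was at 54.9 ± 16.6 and 25.6 ± 2.82 CPM (−1.10, adjusted p = 0.0323). Both of these light chain genes were lower, while the 95% interval of the heavy chain gene reached from −0.10 to 0.23. The summed level of the mouse light chain genes was 100 to 175 CPM in WT and 65.7 to 78.5 CPM in KO. The part of other cell types in these values was not tested. In NK92MI cells the heavy chain rose and SLC7A5 did not pass the test, at 52.4 ± 3.23 and 47.4 ± 1.38 CPM (−0.14, 0.158). Of 4 light chain genes tested there, 1 was called, SLC7A11, the cystine carrier of system xc-, at 22.3 ± 2.94 CPM with DMSO and 41.0 ± 5.98 CPM with BIX-01294 (0.88, adjusted p = 9.02e-05). The summed level of the light chain genes was 102 to 106 CPM with DMSO and 105 to 123 CPM with BIX-01294.

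On a wider list of 10 amino acid and glucose uptake genes, 2 were called higher with BIX-01294 and 5 were higher at 0.05, against 0 lower. SLC38A2, a glutamine and alanine carrier, went from 421 ± 26.9 to 677 ± 37.5 CPM (log2 fold change 0.69), and SLC43A2, a carrier of neutral amino acids, from 3.36 ± 0.14 to 6.44 ± 1.42 CPM (0.94). At the second threshold the glucose carrier SLC2A3 (0.46) and the lactate carrier SLC16A1 (0.41) were also higher. Of these 10 genes, 1 was lower and 0 higher in KO mice at the second threshold. This was Slc43a2, at 103 ± 21.0 CPM in WT and 63.9 ± 4.92 CPM in KO (−0.70).

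Iron genes were read beside Tfrc. Loss of Ehmt2 went with 5 of 18 lower and 1 higher at the second threshold, with a median of −0.31. Tfr2, the second transferrin receptor, stood at 10.2 ± 2.32 CPM in WT and 3.75 ± 0.21 CPM in KO (log2 fold change −1.44, adjusted p = 0.0223 by edgeR). Fth1, the ferritin heavy chain, was at 1961 ± 456 and 1106 ± 207 CPM (−0.83), and the iron exporter Slc40a1 and the haem oxygenase Hmox1 were at −2.18 and −2.54. These last 2 are abundant in red pulp macrophages, whose markers were also lower, 6 of 12 at the second threshold with 1 higher. The ferrireductase Steap3 was higher (0.43). The mRNAs of Tfrc and Fth1, which carry the hairpin at opposite ends, were both lower. The ferritin hairpin acts on translation, which mRNA counts do not measure, and a part of the hairpins was not tested.

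In NK92MI cells 1 of 14 iron genes tested was called, where 11.7% of all genes were. It was FTL, the ferritin light chain, at 209 ± 12.1 CPM with DMSO and 378 ± 71.6 CPM with BIX-01294 (log2 fold change 0.85, adjusted p = 3.91e-05 by edgeR). FTH1 was at 25.7 ± 3.91 and 29.9 ± 7.08 CPM (0.22, adjusted p = 0.297). Both ferritin genes have near-identical processed pseudogenes, so their counts are uncertain. At the second threshold, IREB2, the gene of iron regulatory protein 2, was lower (−0.34), as was the mitochondrial iron importer SLC25A37 (−0.31), while ACO1, the gene of iron regulatory protein 1, and the haem-sensing repressor BACH1 were higher (0.33 and 0.39). TFRC and FTL both rose, and a part of the hairpins was not tested here either.

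CD83 was read with genes of co-stimulation. In NK92MI cells 5 of 9 tested were called, all higher, and at the second threshold 6 were higher and 1 lower, with a median of 0.58. CCR7, a homing receptor that marks mature dendritic cells along with CD83, rose from 41.0 ± 4.25 to 198 ± 11.9 CPM (log2 fold change 2.27, adjusted p = 1.95e-09 by edgeR). RELB, an NF-kB subunit, rose from 22.5 ± 2.2 to 59.3 ± 8.83 CPM (1.39). The CD28 ligands CD80 and CD86 were at 4.24 ± 0.43 and 84.3 ± 5.09 CPM with DMSO and at 11.1 ± 0.77 and 144 ± 4.99 CPM with BIX-01294 (1.39 and 0.77). In the mouse comparison the sign was negative for 10 of 11 genes of this list, and 1, the ICOS ligand gene Icosl (−0.66, adjusted p = 0.0468 by edgeR), passed the second threshold. B cells and dendritic cells express these genes too, and the part of the marker sums given above in these values was not tested.

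For CD69, the list held receptors and enzymes of sphingosine 1-phosphate. S1pr5, the receptor by which mature NK cells leave bone marrow and lymph nodes, was at 290.3 ± 76.0 CPM in WT and 570.2 ± 48.5 CPM in KO (log2 fold change 0.97, adjusted p = 0.0319 by edgeR), and S1pr4 was at 148 ± 25.3 and 207 ± 9.19 CPM (0.48). S1pr1, the receptor that CD69 holds back, was at 95.5 ± 9.46 and 72.8 ± 13.6 CPM and did not pass (−0.39, adjusted p = 0.0977). The kinase Sphk1 was lower, at 2.33 ± 1.33 and 0.44 ± 0.11 CPM (−2.42). In all, 2 of 11 were higher and 1 lower at the second threshold. In NK92MI cells 2 of 10 tested were called higher and 1 lower, and at the second threshold 2 were higher and 5 lower, with a median of −0.15. Among them CCR7, named above, rose and KLF2, a factor that drives S1PR1, fell by 1.14 on the log2 scale, with S1PR1 at 5.50 ± 0.98 and 3.81 ± 0.40 CPM (−0.53, adjusted p = 0.0408). KLF2 was low, with group means of 4.0 CPM with DMSO and 1.81 CPM with BIX-01294. S1PR5 was not listed in the human table.

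Around CD38, 2 of 12 NAD genes tested in NK92MI cells were called higher and 1 lower. At the second threshold 3 were higher and 4 lower, with a median log2 fold change of −0.18. NAMPT, the rate-limiting enzyme of NAD salvage, rose from 263 ± 9.65 to 455 ± 19.1 CPM (log2 fold change 0.79, adjusted p = 7.00e-07 by edgeR), and NMNAT1, the next enzyme of that route, from 8.14 ± 0.58 to 18.0 ± 0.34 CPM (1.14). TRPM2, a calcium channel opened by the CD38 product ADP-ribose, fell from 8.27 ± 0.77 to 4.15 ± 0.55 CPM (−0.99). In KO mice 0 of 15 were higher and 3 lower at the second threshold. Trpm2 was also lower there, at 88.6 ± 36.8 and 28.6 ± 5.72 CPM (−1.63), as were Bst1, the nearest relative of CD38, at 2.79 to 19.9 CPM in WT and 0.59 to 2.28 CPM in KO (−3.07), and the NAD consumer Parp1 (−0.50).

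**Figure D4:**
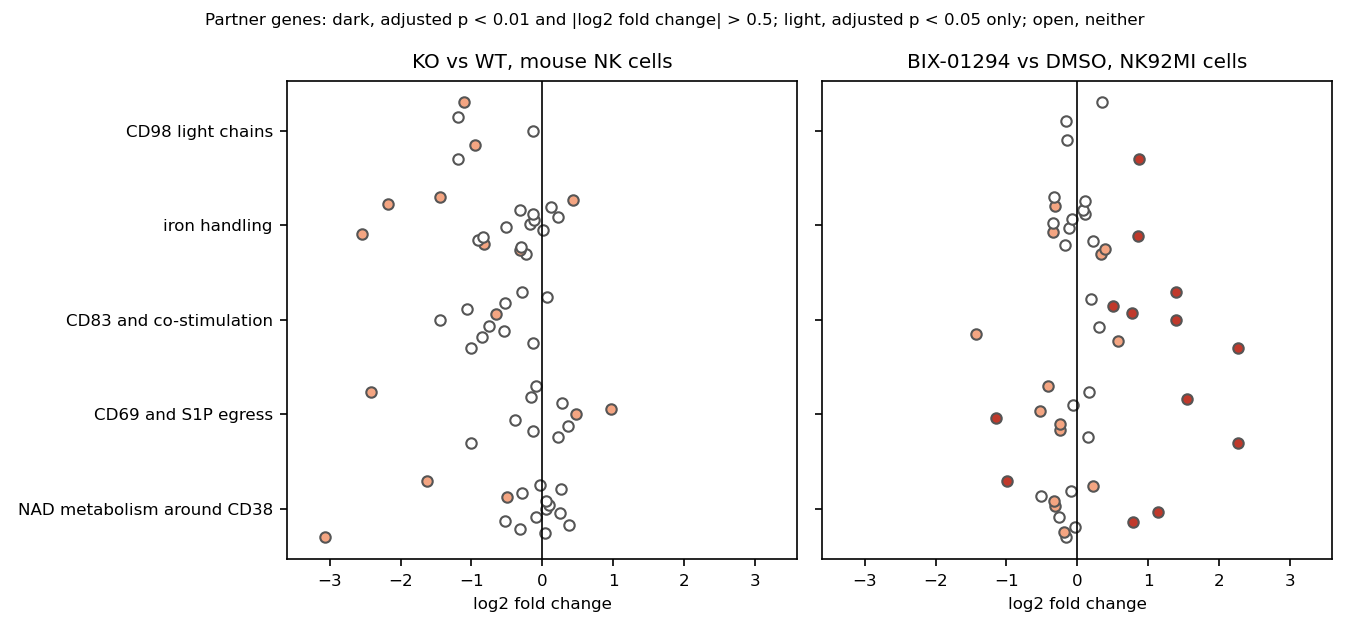
Log2 fold changes of the partner genes tested on 5 lists, in KO against WT mouse NK cells (left) and BIX-01294 against DMSO in NK92MI cells (right), where height within a list only spreads the points. Dark points passed an adjusted p of 0.01 with a |log2 fold change| over 0.5, light points an adjusted p of 0.05, and CCR7 is on both the CD83 and the CD69 list. No mouse point is dark, and 5 of the 9 human co-stimulation genes are dark and right of 0.

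Other activation-induced surface proteins were read as a reference. In NK92MI cells 6 of 12 tested were called higher and 2 lower. TNFRSF9 (4-1BB) had the largest change on this list, from 4.68 ± 1.31 to 64.5 ± 3.83 CPM (log2 fold change 3.78, adjusted p = 1.95e-09 by edgeR), followed by TNFSF10 (TRAIL, 1.26), IL2RA (CD25, 0.89) and the adhesion receptor CD44 (0.84) in order of adjusted p. The Fas ligand gene FASLG (−0.64) and SEMA7A (−0.86) were lower. In mouse 3 of 16 were higher and 2 lower at the second threshold. The higher ones were the maturation marker Klrg1 (0.95), Tnfrsf18 (GITR, 0.76) and Tnfrsf9 (0.71), and the lower ones were Havcr2 (TIM-3, −0.70) and Sema7a (−1.0). Tnfrsf9 was thus on the higher side in both comparisons, where Cd83 and Tfrc were lower in mouse and CD83 and TFRC higher in human.

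SLC3A2 and several light chain genes are known targets of ATF4, the transcription factor of the amino acid and stress response. On a list of such targets, 4 of 13 tested in NK92MI cells were called higher and 2 lower. At the second threshold 4 were higher and 5 lower, with a median log2 fold change of 0.05. PPP1R15A rose from 107 ± 11.3 to 384 ± 50.7 CPM (log2 fold change 1.84, adjusted p = 2.26e-08 by edgeR), and DDIT3 (1.49), DDIT4 (0.64) and SLC7A11 rose, while TRIB3 (−0.85) and PSAT1 (−1.70) fell. In mouse 2 of 17 were lower at the second threshold, Slc7a5, given above, and Asns (−2.30, at 3.55 ± 2.41 and 0.72 ± 0.06 CPM), and 0 were higher. Over all mouse genes 7.43% were lower at that threshold.

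The genes whose log2 CPM followed each transcript most closely over the 6 libraries of a species are given as a description. The libraries fall into 2 groups, so any gene that differs between the groups scores high, and 9131 mouse and 8555 human genes were searched. Cd83 was followed most closely by Tnfrsf13b, which encodes the B cell receptor TACI (Pearson r = 0.9998), and Pkib (0.998). For Tfrc they were the tubulin gene Tuba1b (0.9988) and the inhibitory receptor gene Lair1 (0.9978), for Cd38 Commd9 (0.9962) and Prnp (0.9961), for Cd69 Bcl10 (0.9779) and Ccng2 (0.9726), and for Slc3a2 Ccdc97 (0.9904) and Rnf185 (0.9865). In human, CD83 was followed by the prostaglandin receptor gene PTGER4 (0.9997) and LACTB (0.9995), and SLC3A2 by NAGK (0.9989) and the NF-kB subunit gene RELB (0.9986). For TFRC they were AZIN1 (0.9994) and the NK receptor gene CD96 (0.9993), for CD69 RAP1B (0.9993) and TIFA (0.9959), and for CD38 KLHDC10 (0.9946) and ITSN2 (0.9938).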

How the data were processed

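RNA-seq counts were analysed for 3 WT and 3 KO libraries of splenic NK cells, and for 3 DMSO and 3 BIX-01294 libraries of NK92MI. Per the labels and the paper's methods, the authors trimmed reads with fastp 0.23.4, aligned them with STAR 2.7.11b to GRCm38 or GRCh38, allowing 2 mismatches, and counted them per gene with HTSeq 2.0.3. The deposited values are raw counts per gene symbol. The annotation release and the strand setting are not given in the sources used here. Gene positions, UTRs and transcript lengths came from GENCODE, promoters from RefSeq. Human control columns are numbered, but under another name than the DMSO libraries of the labels, and served as an unpaired control group. Total counts of 16579469 to 37438868 per library leave little counting error for the 5 transcripts.

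Each species was fitted separately in R 4.3.3 with edgeR 4.0.16 (TMM, filterByExpr, quasi-likelihood test, Benjamini-Hochberg adjustment over all genes tested). The thresholds of the study (adjusted p under 0.01, |log2 fold change| over 0.5) and an adjusted p under 0.05 were used. Log2 CPM used a prior count of 2. Intervals cover 95% and rest on 3 libraries a group. Alternatives used DESeq2 1.42.0, limma 3.58.1, other scalings, filters and thresholds, a replicate block, and each library left out. Replicates of a group differed by more than sampling noise. The procedure was tested on simulated data.

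One called gene of a list is not reported here. The members and the gene lists were chosen with earlier results of these data known. Named are the 5 members, at most 4 genes per list and direction by smallest adjusted p (called, or at an adjusted p under 0.05 where 2 or fewer were called), partners that a member's result turns on, and the 2 genes most like each member by Pearson r among those with a mean CPM of at least 10.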

Additional observations from a re-analysis of the deposited data

How the results depend on the processing

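The KO against WT comparison depended on the tool and the threshold. With a |log2 fold change| over 0.5, the 0 genes called in total became 1495 with DESeq2, 819 with a replicate block, 34 without a filter on low counts, 3 with limma-voom, 3579 with scaling to the pan-NK list (19 higher and 3560 lower), and 1254 at an adjusted p under 0.05, or 1565 at that p with no fold threshold. Of the 5 transcripts, 0 were called in the main analysis, 2 (Cd83 and Tfrc) with DESeq2, with the replicate block and at either setting with an adjusted p under 0.05, and 3 with scaling to the pan-NK list. Leaving out each library gave 0 to 2 of the 5 and 0 to 1163 genes, the highest values without WT replicate 2. The signs of Cd69 and Slc3a2 reversed under scaling to the pan-NK list, to −0.61 and −0.78. The cause of these changes was not tested, except that the pan-NK scaling moves all genes alike. Of 80 alternative values of the 5 mouse fold changes, 65 stayed on their side of the threshold, 13 moved past it and 2 reversed.

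Mouse replicate numbers were shared between groups, but nothing states that they pair the mice. The deviations of same-numbered libraries correlated at 0.28, 0.35 and −0.19, so they were not treated as pairs, and not every library correlated best with its own number. With the replicate block, Cd83 and Tfrc had adjusted p of 0.00803 and 0.00927 by edgeR. For the BIX-01294 comparison, no paired analysis was possible because the numbers on the control columns could not be matched to the numbered DMSO libraries of the labels, whose names differ.

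With BIX-01294, CD83, TFRC and SLC3A2 were called under every alternative, and of 75 alternative values 74 stayed on their side of the threshold. CD69 passed it once the fold threshold was dropped, where 4692 genes were called in all. Leaving out each library gave 3 of the 5 throughout. Depth does not limit the 5 transcripts, and 3 libraries a group limit all of them.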
